A study of Rattus norvegicus with 102 samples.

Results

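CA1 of aged rats that were impaired in a water maze was compared with CA1 of aged rats that were not, in 24 of the 102 libraries of the series. Members were all aged CA1 libraries, taken by the class that their labels gave, with 12 from aged impaired rats (AI) and 12 from aged unimpaired rats (AU). All were male Fischer 344 rats aged 17 to 22 months, for which the labels name no transgene and no drug, and 1 library stands for 1 rat. Impaired and unimpaired rats had been separated by an index of time in the goal quadrant against the opposite quadrant in a probe trial, and tissue was taken after that training, so both groups had been trained in the maze. CA1 of young rats (n = 10, aged 5 to 6 months) and CA3 and the dentate gyrus (DG) of the same 24 aged rats served only for comparison. CA1 had been dissected by hand from 1 hippocampus of each rat, with the subiculum cut away and CA2 not separated, so each library holds all cell types of the piece.

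CA1 is the output field of the hippocampal circuit. Its pyramidal neurons receive glutamatergic input from CA3 and from the entorhinal cortex, and their synapses are strengthened or weakened by calcium that enters through receptors and channels or leaves internal stores. Calcium-binding sensors, kinases and phosphatases read that signal, while pumps remove it. CA1 is known for place-related firing and is required for spatial memory in rats, and its pyramidal cells are known to change in calcium handling with age.

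Poly-A RNA of each piece had been sequenced on an Illumina instrument and, from the same RNA samples, on an Ion Proton. Another table, named WT by the submitters, served as a further check. Unless another table is named, values are Illumina reads divided by 1 size factor per library, called normalised reads. CA1 libraries of aged rats held 5.50 to 40.3 M reads in the Illumina table (median 11.1 M in AI and 11.5 M in AU), 5.35 to 21.4 M in the Ion Proton table and 5.13 to 14.1 M in the WT table. The labelled tissue was checked with CA1 pyramidal markers such as Wfs1 and Ndst4, combined into a score, the mean over markers of each gene's standardised log2 value across all 102 libraries. The score was 0.429 to 1.29 in AI and reached 1.44 in AU, where 1 library, that of rat R9869 (rats carry the numbers of their labels), stood apart at -1.20. The median score was 0.98 in AI and 1.07 in AU, and in WT 0.977 and 1.07, where 0 of 12 AI libraries lay above the AU median. Summed over 6 CA1 markers, the medians were 13660 normalised reads in AI and 16030 in AU. Wfs1 held 2895 to 6387 in AI (median 5447) and 1348 to 14870 in AU (median 7467), with all 12 AI rats below the AU median. Its log2 difference was -0.32 (p = 0.224) in the fit that includes rat R9869, which held the lowest AU value. Of the AU rats, 8 lay above every AI rat. Without rat R9869, 1 of 6 CA1 markers tested was lower at p under 0.01, and the list median was -0.108. The part of CA1 markers in the genes that were lower in AI was not tested.

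By CA1, CA3 and DG markers together, the library of rat R9869 lay nearest to DG in all 3 tables, and it was the 1 aged CA1 library that the Illumina and Ion Proton tables alike placed outside CA1. AU rat R9782 lay nearest to CA3 in the Ion Proton and WT tables and AU rat R2230 in the Ion Proton table alone. Striatum markers in the library of rat R9869 summed to 25550 normalised reads, against 1883 to 2492 in the other AU libraries and 2259 to 3603 in AI. Counts of retested genes over all genes are given with and without this library. List counts include it unless stated.

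Markers of the membranes around the brain and of the choroid plexus in the ventricles were high in some libraries. Leptomeninges markers summed to 9266 in AI rat R2231, 8288 in AI rat R9870 and 7253 in AU rat R9865, against 374 to 741.8 in the other AI and 356.3 to 1467 in the other AU libraries. Choroid plexus markers summed to 151800 in AI rat R9870, 126500 in AU rat R9865, 22450 in AU rat R9862 and 11560 in AI rat R2231, and the median was 166.9 over the other AI libraries. The count of retested genes is also given without the 3 libraries highest in leptomeninges markers.

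Markers of the tissue that borders CA1 also differed between the groups. The subiculum score had a median of 0.736 in AI and 0.444 in AU, and 7 of 12 AI libraries lay above every AU library. In the Ion Proton table the medians were 0.82 and 0.613 with 2 AI libraries above every AU library, and in WT they were 0.627 and 0.532 with 1. Summed over the 5 subiculum markers, AI libraries held 2610 to 5034 normalised reads (median 3419) and AU libraries 2178 to 4363 (median 2913), and none of the 5 was at 0 in a whole group. The cortical layer score had a median of 0.667 in AI and 0.342 in AU, with 3 AI libraries above every AU library (6 in the Ion Proton and 2 in the WT table). Its 11 markers summed to 5233 to 13810 (median 9660) in AI and 5320 to 10870 (median 8143) in AU. Of single markers, Slc17a6, a vesicular glutamate transporter of subicular and thalamic neurons, differed by 0.69 on the log2 scale (p = 0.0239). Rprm differed by 0.94 (p = 0.0349) and Prkcd, which marks thalamus, by 0.77 (p = 0.0303). By mean log2 value 5 of 5 subiculum and 5 of 6 thalamus and habenula markers tested were higher in AI, 1 of each at p under 0.05. Yet most AI rats lay below the AU median for some members, 9 of 12 for Nts (12 in WT), 9 for Plekhg1, 8 for Tcf7l2 and 7 for Zic1. CA3 markers had a median score of -0.745 in AI and -0.48 in AU, while their summed medians were 4504 and 4546 normalised reads. Thalamus and habenula scores had medians of 0.142 in AI and 0.112 in AU (0.0117 and 0.167 in WT), and 1 AI library, that of rat R9875, reached 3.26. The part of these region markers in the gene differences below was not tested on separate tissue. Fits with a single covariate pooled from the subiculum and cortical layer markers, called the region scores below, are given beside the counts. CA3, thalamus and habenula markers entered no such covariate.

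**Figure D1:**
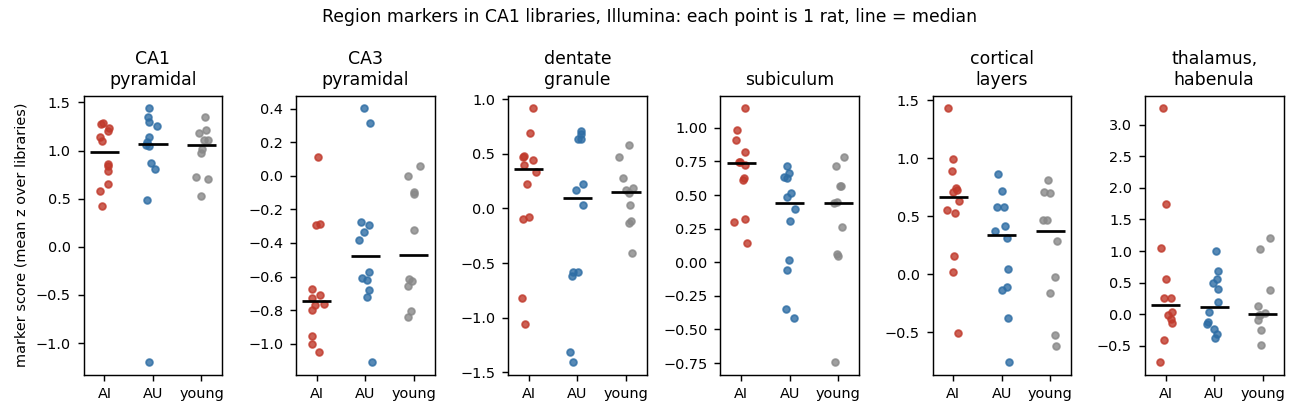
Scores of 6 sets of region markers (y axis, mean standardised log2 value) in each CA1 library of the Illumina table, for AI (n = 12), AU (n = 12) and young rats (n = 10), with a line at the group median. Medians of the subiculum score (0.736 against 0.444) and the cortical layer score (0.667 against 0.342) were higher in AI than in AU, and 1 AU library lay at -1.20 in the CA1 pyramidal score.

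No gene differed between AI and AU in limma once p-values were adjusted over all genes (Benjamini-Hochberg, threshold 0.05). The count was 0 of 14205 genes tested (0%) in the Illumina table, with a smallest adjusted p of 0.308, and 0 in each of the other tables. In WT there were 8 with DESeq2, and 7 in limma without AU rat R2232 (smallest adjusted p 0.0373). At an unadjusted p under 0.05 there were 811 genes (5.71%), of which 396 (2.79%) were higher and 415 (2.92%) lower in AI. edgeR also gave 0 at the adjusted threshold and DESeq2 gave 6, among them LOC678893, Ecel1, Htra4, Camk2d and Adamts3, named here because that tool called them. Ecel1 had a limma p-value of 0.0463, while those of LOC678893, Htra4, Camk2d and Adamts3 were 2.78e-05, 6.79e-05, 0.000152 and 0.000173.

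A gene is called retested below where it had p under 0.01 in the Illumina table and the Ion Proton table then gave the same direction at a one-sided p under 0.05. There were 208 genes at the first step (1.46%), 103 higher (0.725%) and 105 lower (0.739%) in AI, and 88 were retested (0.62%), 53 higher (0.373%) and 35 lower (0.246%). A one-sided p under 0.05 was also reached in WT by 79 of them (0.556%), 2 were not tested there and 0 went the opposite way. Lists of genes named below are read against these shares and against the 48% of all tested genes that were higher in AI. The retested differences were moderate. Their median absolute size was 0.451 on the log2 scale, and 6 of 88 exceeded 1. The tables share their rats, and both poly-A tables came from the same RNA samples. This retest therefore bears on library and instrument error and not on differences between animals or between dissections. In none of the 88 genes were the 12 AI and 12 AU libraries fully separated, and in none of the 14205 either.

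How many genes were retested depended on which rats and which covariate entered the fit. Without the library of rat R9869 there were 120, of which 52 were higher, so that most were then lower in AI. Without the 3 libraries high in leptomeninges markers (rats R2231, R9870 and R9865) there were 24, of which 23 were among the 88, and 16 were higher. Rat R9870 was the highest AI rat in 22 and rat R2231 in 8 of the 53 genes that were higher in AI. What part these markers have in the gene differences was not tested. With the subiculum and cortical layer score as a covariate there were 13, and 8 of these were among the 88. Rat numbers fall into a series below 9000 (7 AI and 6 AU) and a series from 9000 up (5 AI and 6 AU). Rats had been tested at 2 sites and came from 2 colonies, and the 2 series match the sites in their numbers of rats, but no label ties a rat to a site. With the series as a covariate 97 genes were retested, 81 of them among the 88. Taken alone, the lower series gave 32 retested genes, 14 of them among the 88, and the higher series gave 99, with 31 among the 88. Without the 4 rats whose CA1 libraries were sequenced over 2 times deeper than the median, 44 were retested, 38 of them higher. 2 rats lay at the inner edge of the groups in many genes. AU rat R2232 was the highest AU rat in 35 of the 53 genes that were higher in AI, and AI rat R9872 was the highest AI rat in 23 of the 35 that were lower. Without rat R2232 there were 168 retested genes and without rat R9872 there were 174.

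Of the genes named below, 38 were retested, and 18 of these were retested again whichever single rat was left out. They were Atp2b4, Camk2d, Cbln1, Gabra3, Grm2, Ncald, Ntng1, Tbr1 and Zdhhc22 on the higher side and Adamts3, Adra1d, Dclk2, Neto1, Pragmin, Prkca, Rem2, Rerg and Rspo2 on the lower. The other 20 stayed retested in 7 to 23 of the 24 fits, and any 1 rat took away 2 to 16 calls. Without rat R9869, the library that stood apart, 11 were lost, namely Olr59, AABR06030185.1, AABR06030186.1, Chrna4, Sema3a, Igfbp6, Kcnc4, Dgka, Akap13, Dnah6 and Tnnt1. Without the 3 libraries high in leptomeninges markers 10 stayed retested, which were Adra1d, Atp2b4, Camk2d, Gabra3, Grm2, Ncald, Ntng1, Rem2, Rspo2 and Zdhhc22. Cbln1 then differed by 0.78, Chrna4 by 0.66, Sema3a by 0.54, Igfbp6 by 0.42, Prkca by -0.34 and Hpca by -0.43. With the region scores as a covariate 3 stayed retested, which were Camk2d, Gabra3 and Ncald.

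Among kinases that calcium activates, Camk2d was higher in AI and Prkca lower. Camk2d, the delta subunit of calcium/calmodulin-dependent kinase II (chromosome 2), held 717 to 1342 normalised reads in AI (median 1027) and 429 to 970.2 in AU (median 688). All 12 AI rats lay above the AU median, and 7 lay above every AU rat. The difference was 1.48-fold, or 0.56 ± 0.13 on the log2 scale (SE, p = 0.00015), with 0.61 in the Ion Proton and 0.60 in the WT table. It was 0.51 in the lower and 0.61 in the higher series, and 0.35 with the region scores as a covariate. Prkca, protein kinase C alpha (chromosome 10), held 620 to 1859 in AI (median 1242) and 1103 to 2165 in AU (median 1692), and 11 of 12 AI rats lay below the AU median. It was lower by 27.2%, a log2 difference of -0.46 ± 0.14 (p = 0.00387). Of 22 kinases, phosphatases and their inhibitors tested, these were the 2 retested, and the median of the list was -0.0798 against -0.0036 over all genes. Calcineurin and CaM kinase I subunits were not retested, with -0.23 for Ppp3ca (p = 0.0496), -0.27 for Camk1d (p = 0.0123) and 0.20 for Camk1 (p = 0.0377).

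The calcium sensors Ncald and Hpca, which are close relatives and both move to membranes when they bind calcium, also differed in opposite directions. Ncald, neurocalcin delta (chromosome 7), held 4873 to 6778 in AI (median 5669) and 3574 to 6041 in AU (median 4519). Each AI rat lay above the AU median, and 7 AU rats lay below every AI rat. The log2 difference was 0.27 ± 0.07 (p = 0.00062), and 0.23 with the region scores as a covariate. Hpca, hippocalcin (chromosome 5), an abundant sensor of pyramidal cells, held 9509 to 24600 in AI (median 16020) and 13130 to 34870 in AU (median 23450). AI rats lay below the AU median in 11 of 12, and the log2 difference was -0.58 ± 0.15 (p = 0.00089). With the region scores as a covariate Hpca differed by -0.31 and was no longer retested. Of 18 buffers and sensors tested, 12 were higher in AI and the list median was 0.048 (9 and 0.0109 without rat R9869). Kcnip3, a sensor that also binds potassium channels and DNA, reached the first step (0.29, p = 0.0011) and not the second (two-sided p = 0.103 in the Ion Proton table), and the buffer genes Calb1, Calb2 and Pvalb had p-values of 0.276 or more.

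RefSeq promoter windows (build GRCr8, not the build the tables were counted on) show how unlike the starts of these genes are, and 63 of the 88 retested symbols had one. The 250 bases before the start are printed for Camk2d and Gabra3, which stayed retested with the region scores as a covariate, and for Hpca and Prkca, which did not. Capitals mark the GC box GGGCGG and the core TGACG of the cyclic AMP response element, searched on both strands.
Camk2d (GRCr8, chr2:217698301-217698550, plus strand): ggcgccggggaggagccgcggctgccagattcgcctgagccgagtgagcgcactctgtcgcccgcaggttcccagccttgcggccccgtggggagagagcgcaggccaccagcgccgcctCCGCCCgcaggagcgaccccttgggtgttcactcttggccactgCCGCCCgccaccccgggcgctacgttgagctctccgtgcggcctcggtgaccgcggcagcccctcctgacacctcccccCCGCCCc
Gabra3 (GRCr8, chrX:155543871-155544120, minus strand): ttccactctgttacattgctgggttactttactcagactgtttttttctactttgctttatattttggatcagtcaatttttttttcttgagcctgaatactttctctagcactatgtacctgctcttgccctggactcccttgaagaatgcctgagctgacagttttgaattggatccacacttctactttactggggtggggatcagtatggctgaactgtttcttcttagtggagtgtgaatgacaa
Hpca (GRCr8, chr5:146748359-146748608, minus strand): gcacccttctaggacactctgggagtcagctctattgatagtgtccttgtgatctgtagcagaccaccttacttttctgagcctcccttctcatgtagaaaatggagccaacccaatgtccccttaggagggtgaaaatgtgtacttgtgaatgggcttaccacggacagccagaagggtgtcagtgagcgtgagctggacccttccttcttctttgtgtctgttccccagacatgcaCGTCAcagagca
Prkca (GRCr8, chr10:93787328-93787577, minus strand): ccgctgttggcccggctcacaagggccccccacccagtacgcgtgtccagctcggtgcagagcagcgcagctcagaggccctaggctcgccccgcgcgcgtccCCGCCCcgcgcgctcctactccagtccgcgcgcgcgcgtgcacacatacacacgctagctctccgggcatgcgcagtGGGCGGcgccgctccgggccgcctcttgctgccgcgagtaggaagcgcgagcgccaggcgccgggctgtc
The windows of Camk2d and Prkca, which differed in opposite directions, held 3 and 2 GC boxes and 75.2% and 74.8% G and C, while Gabra3 held neither motif at 40.4% G and C, and Hpca held 1 such core. GC boxes stood in 52.9% of the 68 windows of retested genes, in 56.4% of windows of all tested genes and in 30.5% of all 33469 windows. The TGACG core stood in 12.8% of 39 windows of genes higher in AI and in 31.0% of 29 windows of genes lower in AI, against 26.3% for tested genes and 18.2% for all windows. These are letter matches and not sites of binding.

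Pumps, stores and channels that set calcium levels were mostly not retested. With all rats the exception among 21 pump and store genes (list median -0.0434) was Atp2b4, a plasma membrane calcium pump (chromosome 13), which was higher in AI. Without rat R9869, 1 gene of that list was retested higher and 1 lower (list median -0.0574). Values of Atp2b4 were 474 to 1581 in AI (median 1011) and 228 to 1515 in AU (median 567). AU rat R2232 was as high as the upper AI rats, while 11 of 12 AI rats lay above the AU median. The difference was 1.92-fold, or 0.94 ± 0.27 on the log2 scale (p = 0.00155), and 0.46 with the region scores as a covariate. Ryr3, the ryanodine receptor of calcium stores, was lower by the first step (-0.33, p = 0.0002) but had a two-sided p of 0.194 in the Ion Proton table, and Itpr1, the inositol trisphosphate receptor, had -0.26 (p = 0.0117).

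Of 15 voltage-gated calcium channel subunits tested (list median -0.0821), only Cacnb2, a beta subunit that brings channels to the membrane, was retested. It held 859 to 1370 in AI (median 1066) and 983 to 1591 in AU (median 1254), a log2 difference of -0.22 ± 0.07 (p = 0.00557), with 11 of 12 AI rats below the AU median. Cacna1i, a T-type channel, had -0.26 (p = 0.0015) but a two-sided p of 0.234 in the Ion Proton table. L-type channel genes Cacna1c and Cacna1d had p-values of 0.963 and 0.871. Rem2, a small GTPase that restrains these channels, held 52.1 to 208 in AI (median 116) and 112 to 316 in AU (median 198), and in AI was lower by 36.8% (-0.66 ± 0.19, p = 0.00149). Its difference was -0.34 in the lower and -0.99 in the higher series of rats.

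**Figure D2:**
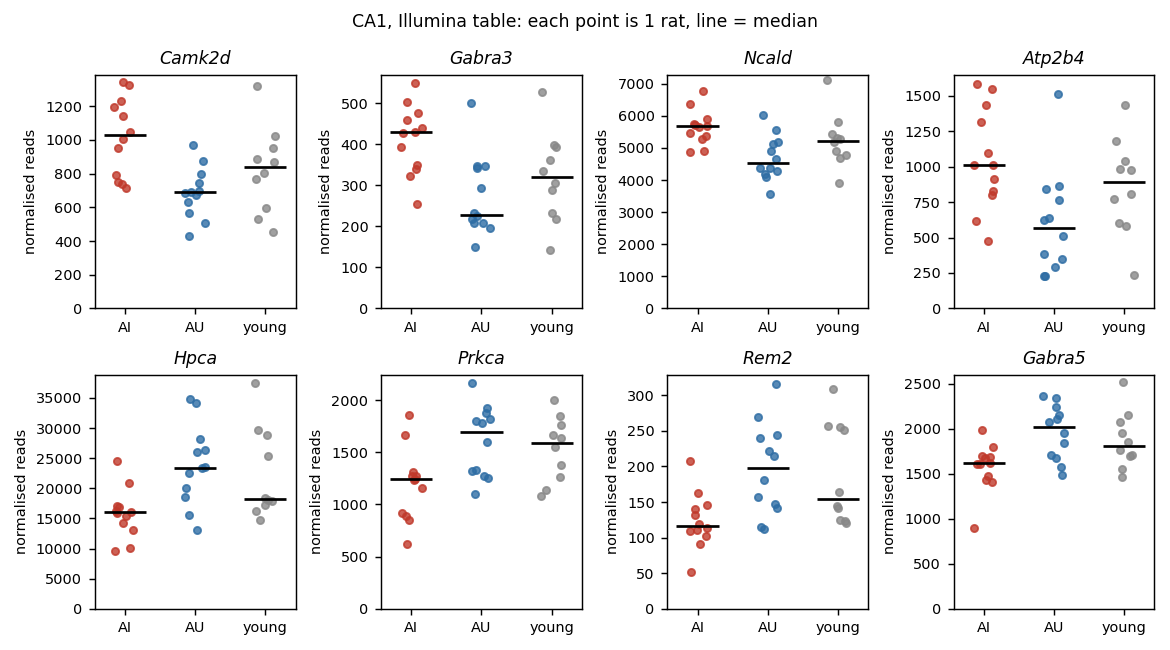
Normalised reads (y axis, from 0) of 8 genes in each CA1 library of the Illumina table, for AI (n = 12), AU (n = 12) and young rats (n = 10), with a line at the group median. Camk2d, Gabra3, Ncald and Atp2b4 had higher and Hpca, Prkca, Rem2 and Gabra5 lower medians in AI than in AU, and the groups overlap in each.

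The 28 calcium and synaptic genes that the study set out for CA1 were chosen on these same rats, so their counts are no independent evidence of a direction. There were 4 higher and 24 lower in AI in the Illumina table, with a median of -0.277, and 3 higher and 13 lower were retested. The medians were -0.229 in the Ion Proton and -0.247 in the WT table. The 3 higher were Atp2b4, Grm2 and Kcnk1. The 12 that were not retested include Slc17a8, the vesicular glutamate transporter VGLUT3 (-0.77 in the Illumina, -0.21 in the Ion Proton table), and Homer3, a postsynaptic scaffold (-0.56 and -0.40). Vav2, an exchange factor for small GTPases, went in different directions in the poly-A tables (-0.36 and 0.16). The other 15 neuronal lists, which were also drawn up with earlier results of these data known, had medians between -0.0894 (postsynaptic scaffolds) and 0.121 (metabotropic glutamate receptors), and between -0.114 and 0.122 for the same lists without rat R9869.

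Receptors for GABA differed by subunit. Gabra3, the alpha 3 subunit (chromosome 1 in the tables and X in RefSeq), held 255 to 549.6 in AI (median 429) and 149 to 499.8 in AU (median 229), and all 12 AI rats lay above the AU median. Its log2 difference was 0.64 ± 0.15 (p = 0.00032), and 0.33 with the region scores as a covariate, where it stayed retested. Gabra5, the alpha 5 subunit that serves tonic inhibition in CA1 pyramidal cells, held 903 to 1992 in AI (median 1617) and 1489 to 2370.1 in AU (median 2017). All 12 AI rats lay below the AU median, and the log2 difference was -0.32 ± 0.10 (p = 0.00306). The other 12 GABA receptor subunits tested were not retested, with the nearest at 0.39 for Gabrd (p = 0.0126), and the list median was 0.0198.

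Few glutamate receptor genes were retested. At p under 0.05, 3 of 8 metabotropic receptors were higher in AI and 0 lower, beside 5.71% of all genes. Of 22 AMPA and kainate receptor genes, 2 were higher and 3 lower at that threshold. Grm2, a metabotropic receptor that limits glutamate release, held 483 to 1044 in AI (median 781) and 204 to 1052 in AU (median 462), a log2 difference of 0.67 ± 0.20 (p = 0.0029). All 12 AI rats lay above the AU median, but an AU rat, R2232, was the highest of all. Grm2 differed by 0.26 in the lower and by 1.05 in the higher series. Neto1, an auxiliary protein of kainate receptors, held 570.2 to 1302 in AI (median 915) and 902 to 2277 in AU (median 1181), a log2 difference of -0.47 ± 0.14 (p = 0.00298). Of 22 AMPA and kainate receptor genes it was the 1 retested with all rats (list median -0.0247), and Gria1 and Gria2 had p-values of 0.207 and 0.494. Without rat R9869, 2 genes of that list were retested, both lower, and the median was -0.0823. None of 7 NMDA receptor subunits reached p under 0.05, the smallest being 0.145 for Grin2a, and their median was -0.0696.

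Among receptors for other transmitters, Adra1d, the alpha-1D adrenergic receptor, was lower in AI. It held 499.5 to 979.96 in AI (median 779) and 802 to 1486 in AU (median 984), and 8 AI rats lay below every AU rat. The log2 difference was -0.43 ± 0.11 (p = 0.00079), with -0.48 in the Ion Proton table and -0.41 and -0.44 in the 2 series of rats. With all rats it was the 1 retested of 17 monoamine and muscarinic receptors, whose median was 0.0103. Without rat R9869, 1 of these was retested higher and 1 lower, and the median was 0.0414. Chrna4, the nicotinic alpha 4 subunit, held 116 to 590.3 in AI (median 306) and 56.5 to 360.1 in AU (median 184), a log2 difference of 0.81 ± 0.29 (p = 0.00906), which was 0.19 with the region scores as a covariate. Ntsr1, a neurotensin receptor, differed by 0.75 ± 0.24 at a median of 23.6 in AI and 12.7 in AU.

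Proteins that organise synapses were higher where they were retested. Cbln1, which bridges presynaptic neurexin and postsynaptic delta receptors, held 39.5 to 397 in AI (median 109.9) and 24.2 to 160.4 in AU (median 43.8), with 11 of 12 AI rats above the AU median. Its log2 difference was 1.02 ± 0.30 (p = 0.00232), and it was 0.55 in the lower and 1.55 in the higher series. Ntng1, netrin-G1, an axonal adhesion protein, held 369 to 796 in AI (median 542) and 208 to 611 in AU (median 391.7), a difference of 0.57 ± 0.16 (p = 0.00117). These were the 2 retested of 25 organisers, whose median was 0.0517. Sema3a, a repellent for growing axons, held 10.3 to 72.3 in AI (median 28.6) and 6.43 to 28.7 in AU (median 17.0), and its difference of 0.78 ± 0.27 (p = 0.0088) was 0.28 with the region scores as a covariate.

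Of 33 potassium and HCN channel subunits, 22 were higher in AI (18 without rat R9869), beside 48% of all tested genes. The median was 0.0729, and 2 were retested, both higher (1 higher and 1 lower without rat R9869). Kcnk1, a leak channel subunit, held 454 to 753.5 in AI (median 499.6) and 289 to 556 in AU (median 418), with all 12 AI rats above the AU median (0.34 ± 0.10, p = 0.00249). Kcnc4, a fast Kv3 channel, differed by 0.51 ± 0.17 (p = 0.00604), but by 0.09 in the lower and 0.95 in the higher series.

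Genes of G-protein and lipid signalling were retested in both directions, 1 each of 23 tested (median -0.0515), and 2 higher and 1 lower without rat R9869. Rgs6, which shortens G-protein signals, had medians of 139 in AI and 93.5 in AU (0.51 ± 0.18, p = 0.0072). Dgka, which removes diacylglycerol, the activator of protein kinase C, had medians of 813 and 989 (-0.26 ± 0.07, p = 0.0014). Of the study's list, Scube2 is described below and 4 further retested genes were lower, at -0.26 for Akap13, an anchor for protein kinase A, -0.27 for Dclk2, a microtubule-binding kinase, -0.28 for Arpc5, a subunit of the Arp2/3 actin complex, and -0.33 for Pragmin.

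**Figure D3:**
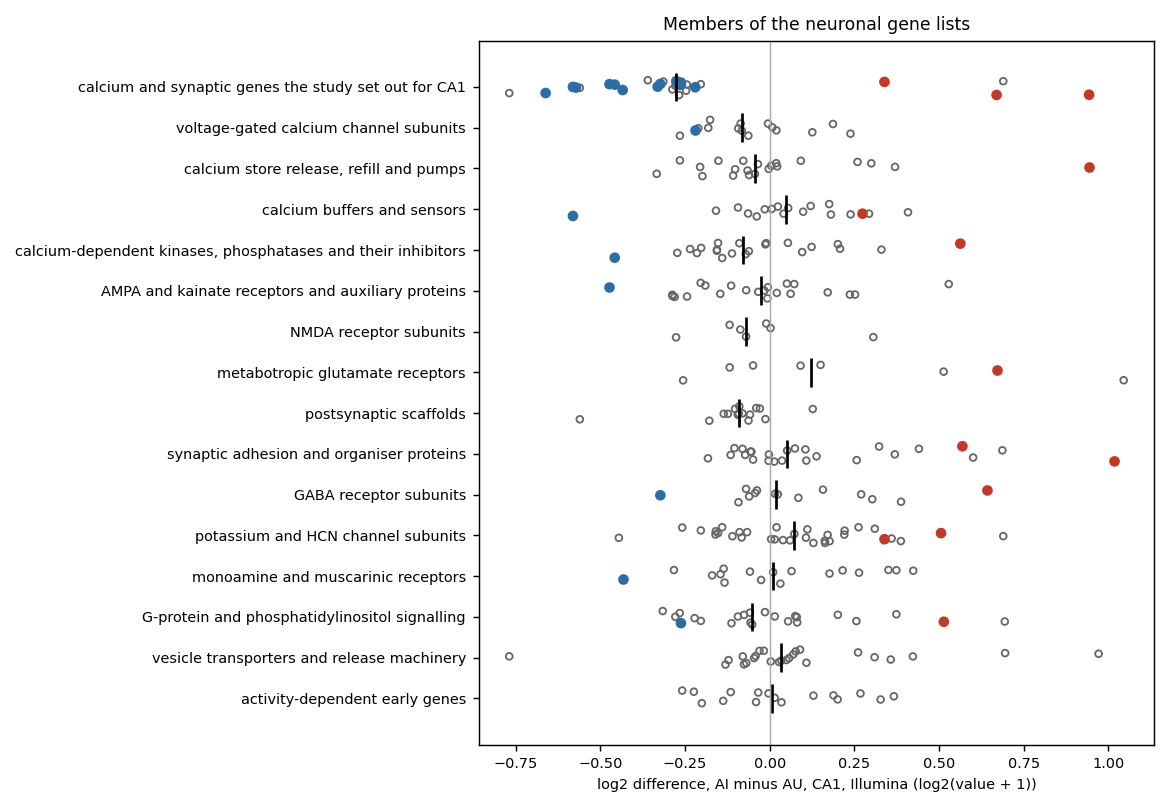
Log2 differences between AI and AU in CA1 (x axis, Illumina table, log2(value + 1)) of every tested member of 16 neuronal gene lists, with filled points for retested genes (red higher, blue lower in AI), open points for the rest and a line at each list's median. Medians of the 15 lists other than the study's own lay between -0.0894 and 0.121, and retested members were few on either side.

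The largest retested differences were in genes of low value. Olr59, an olfactory receptor gene, held 8.46 to 246 in AI (median 20.5) and 2.44 to 19.95 in AU (median 14.3). Its log2 difference of 1.17 ± 0.42 rested in part on AI rat R9870, the highest at 246, and the range over leaving out each rat in turn was 0.87 to 1.30. AABR06030185.1 and AABR06030186.1, both on chromosome 4 and known only by clone names, differed by 1.04 and 1.03 at AI medians of 29.2 and 23.9, and by 0.26 and 0.28 with the region scores as a covariate. Whether they share reads cannot be told from the tables. Zdhhc22, a palmitoyltransferase, held 117 to 235 in AI (median 177) and 38.6 to 213 in AU (median 87.0), with 9 AU rats below every AI rat (0.87 ± 0.22, p = 0.00041). Igfbp6, a binding protein of insulin-like growth factors, differed by 0.74 ± 0.25 and by 0.28 with the covariate.

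Among the lower genes Tnnt1, a troponin T, held 12.1 to 146 in AI (median 39.8) and 16.4 to 539.5 in AU (median 117), a log2 difference of -1.31 ± 0.43 (p = 0.00543). The top AU value was that of rat R9869, whose library lay nearer to another subfield, and without it the difference was -1.09 and Tnnt1 was not retested. Dnah6, a dynein of motile cilia, held 3.82 to 75.2 in AI (median 18.5) and 14.2 to 145 in AU (median 42.0), again with rat R9869 highest. Without that rat it differed by -0.93 and was not retested. Markers of ependyma, the ciliated lining of the ventricles, differed unevenly, with -1.51 for Tmem212 (p = 0.0128), -0.77 for Ccdc153 (p = 0.0221) and 0.01 for Rsph1 (p = 0.939). The median of these 3 markers was -0.772 in the Illumina, -0.266 in the Ion Proton and -0.061 in the WT table, and their sums were 53.8 to 128 in AI and 58.9 to 256 in AU. Their part in the Dnah6 difference was not tested.

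With Rem2, Hpca and Neto1, described above, 5 further genes completed the 10 lowest. Rerg, a Ras-like GTPase, held 136 to 415 in AI (median 199) and 206 to 559 in AU (median 386), with 7 AI rats below every AU rat (-0.69 ± 0.19, p = 0.00113). Rspo2, an amplifier of Wnt signals, held 104 to 333 in AI (median 241) and 205 to 661 in AU (median 338), and all 12 AI rats lay below the AU median (-0.60 ± 0.17, p = 0.00156). Adamts3, a secreted protease, held 158 to 425 in AI (median 299) and 312 to 593 in AU (median 418), and 6 AI rats lay below every AU rat (-0.56 ± 0.13, p = 0.00017). Scube2, a secreted protein of hedgehog signalling, differed by -0.57 ± 0.14, and Strip2, of a phosphatase complex, by -0.64 ± 0.22. All 5 were smaller with the region scores, from -0.44 for Scube2 to -0.35 for Rerg.

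Tbr1, a transcription factor of glutamatergic cortical neurons and a marker in the cortical layer list, was itself retested. It held 240.5 to 669 in AI (median 355) and 135 to 405 in AU (median 234), all 12 AI rats lay above the AU median, and the log2 difference was 0.56 ± 0.16 (p = 0.00175). It did not hold in WT, where the difference was 0.32 (p = 0.163) and 7 of 12 AI rats lay above the AU median. In that list 9 of 11 members were higher in AI (median 0.254), and in the subiculum list 5 of 5 (median 0.138), beside 48% of all tested genes. Without rat R9869, 9 of 10 cortical layer members tested and 4 of 5 subiculum members were higher, with medians of 0.0853 and 0.175. In bulk tissue, more cells of a type and more RNA per cell cannot be told apart.

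No member of the microglia (12 tested), astrocyte (8), oligodendrocyte (8) or oligodendrocyte precursor (5) lists reached p under 0.05, and their medians were -0.0654, -0.0733, -0.132 and -0.0394. The same held with all rats for endothelium (6 of 6 higher, median 0.157), leptomeninges (0.382), blood (0.2), choroid plexus (-0.562), interneurons (0.0678) and Cajal-Retzius cells (0.039). Without rat R9869, 1 endothelium gene was higher at p under 0.05. Choroid plexus had a median of 1 in the lower series of rats (4 of 5 higher), -1.65 in the higher series (0 of 5) and 0.0772 in the Ion Proton table. Oligodendrocyte markers were higher in 8 of 8 in the lower and 0 of 8 in the higher series. Without the 3 libraries high in leptomeninges markers the leptomeninges median was -0.0167 and that of choroid plexus -1.06. Thalamus and habenula markers had a median of 0.234.

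Striatum markers depended on 1 library. With all rats, 5 of 8 were higher in AI, the median was 0.103 and 0 had p under 0.05. Without rat R9869, 8 of 8 were higher, the median was 0.409, 5 had p under 0.05 and 3 were retested and also held in WT, beside 0.846% of all genes retested in that fit. Among them were Drd1, the D1 dopamine receptor, with 0.66 (p = 0.00104, and 0.37 with all rats), and Rgs9, a regulator of G-protein signals in striatal neurons, with 0.78 (p = 0.000928, and 0.37 with all rats). Without the 3 libraries high in leptomeninges markers, which leaves rat R9869 in, the median was 0.078.

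Lists of CA1 and CA2 pyramidal cells (0.132 and -0.0389) and dentate granule cells (0.346) held no gene at p under 0.05 with all rats. The dentate list had a median of -0.228 with 0 of 5 higher in the lower series of rats, and of 1.06 with 5 of 5 higher in the higher series, where Grm2, Cbln1 and Kcnc4 also differed more. Without rat R9869 the CA1 median turned to -0.108, with 1 of 6 members higher and 1 lower at p under 0.01, and the CA2 median to 0.054, with 1 member higher and 1 lower at p under 0.05. Interneuron and Cajal-Retzius medians turned to -0.0314 and -0.0456. CA3 markers had a median of -0.28, with 2 of 5 tested higher, from -0.37 for Bok (p = 0.0209) to 0.27 for Nnat (p = 0.249). The 2 pituitary genes tested had a median of 1.06, with 1.76 for Prl (p = 0.038). Summed over all 6 listed pituitary genes, the medians were 30.58 normalised reads in AI and 27.8 in AU. AI rat R2231 held 202.8, R2233 105.7, R2238 92.81, R9781 70.26 and R2235 66.27, against at most 48.52 in AU. The list median was 1.87 in the lower series of rats, where 1 member was retested and also held in WT. With 1 gene tested it was 0.0277 in the higher series and 0.387 without the 3 libraries high in leptomeninges markers. Vesicle and release genes had a median of 0.0346 over 25 tested. With all rats, none of 16 activity-dependent early genes, among them Fos, Arc and Egr1, reached p under 0.05 (median 0.00578). Without rat R9869 the median was -0.0304 and 1 early gene was lower at p under 0.01.

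Young CA1 values often lay between those of the aged groups. For 28 of the 35 genes lower in AI (80%), and for 52 of the 53 genes higher in AI (98.1%), the young mean fell between the AI and AU means on the log2 scale, against 31.3% of all tested genes. For 33 of the 35 lower genes the AU mean was the nearer to young, as in Adra1d with a young median of 892 beside 984 in AU and 779 in AI. For the 53 higher genes it was nearer in 32 and the AI mean in 21. Over all tested genes the AU mean was the nearer in 7595 of 14205. The genes had been chosen for a gap between AI and AU, so these counts are a description and carry no test.

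The AI and AU difference of the retested genes was not seen to run the same way in the other subfields of these rats. Of the 53 genes higher in CA1, 13 were higher in CA3 and 14 in DG, with median differences of -0.123 and -0.078, and of the 35 lower in CA1, 10 were lower in CA3 and 6 in DG, with medians of 0.121 in both. Over all tested genes the sign was shared in 44.9% with CA3 and 48.2% with DG. At p under 0.01 there were 71 genes in CA3 (0.5%) and 20 in DG (0.141%) over all tested, and 0 of the 88 in either, which is close to those shares.

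A difference between subfields was not established for any gene at the adjusted threshold. In 1 limma fit over the 72 libraries of aged rats, 0 of 14186 genes had an adjusted p under 0.05 for CA1 minus CA3 (smallest 0.857) or CA1 minus DG (smallest 0.999). At p under 0.01 there were 112 (0.79%) and 69 (0.486%), and at p under 0.05 there were 647 (4.56%) and 494 (3.48%). With the rat as a block, edgeR on the recovered reads or the Ion Proton table, the adjusted count was also 0. For CA1 minus CA3 the smallest adjusted p was 0.344 with the block, 0.0752 in edgeR and 0.999 in the Ion Proton table. Among the 88 retested genes, 47 and 52 had p under 0.05, but they were selected on the CA1 difference that enters this test, so nothing is read from these shares. The same selection applies to Ntng1, whose effect differed between CA1 and DG by 0.88 (p = 0.00243, adjusted p = 0.999). It also applies to Tbr1, which differed between CA1 and CA3 by 1.02 (p = 0.00167, adjusted p = 0.959).

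**Figure D4:**
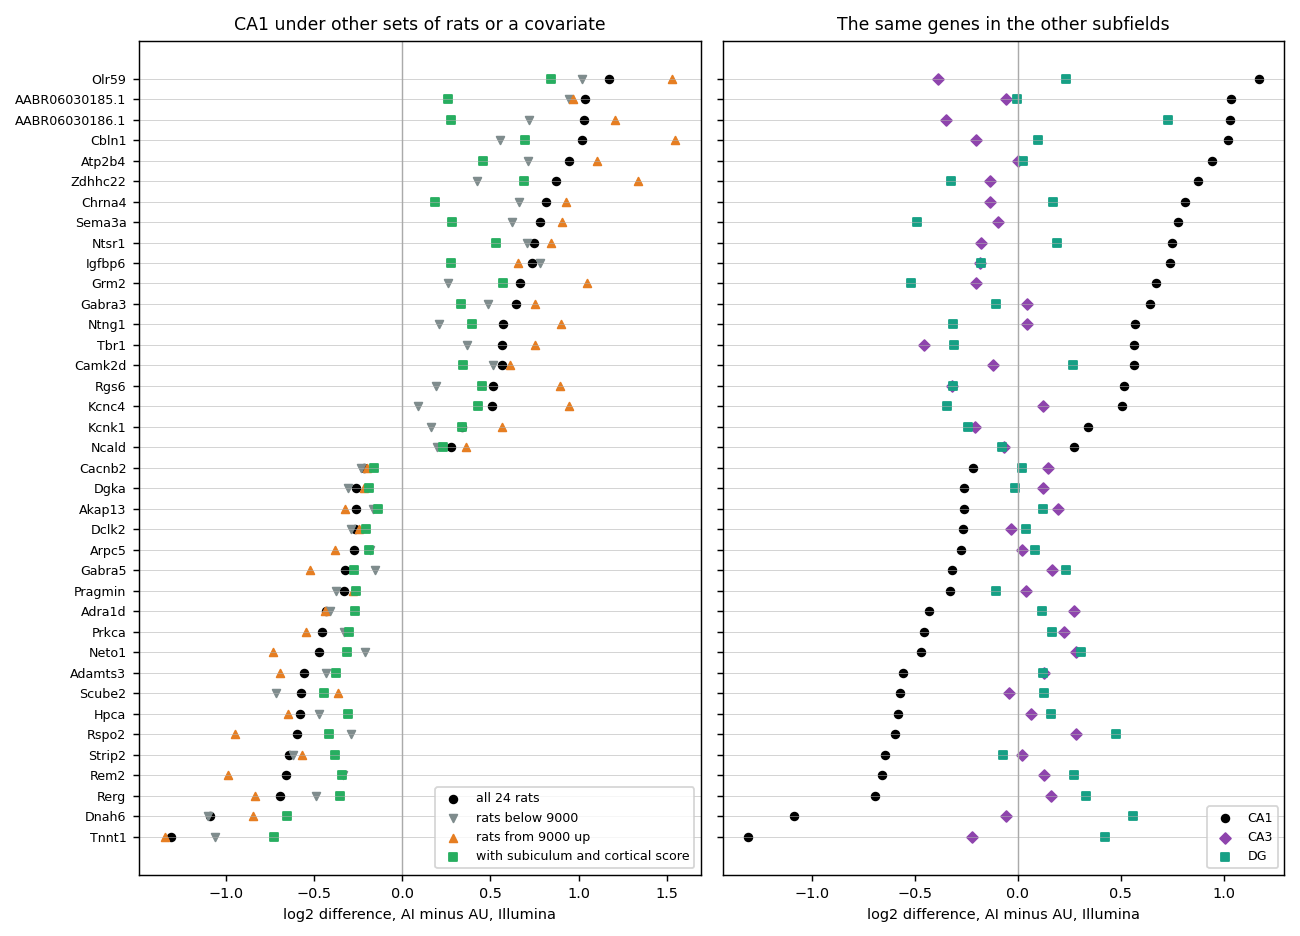
Log2 differences between AI and AU (x axis, Illumina table) of the 38 named retested genes (y axis): left, in CA1 with all 24 rats, each series of rat numbers alone, and the region scores as a covariate; right, in CA1, CA3 and DG of the same rats. Every CA1 point keeps the sign of the full fit (Tbr1, part of the covariate, has no point there), most points with the covariate lie nearer 0, and CA3 and DG points lie on the side of 0 opposite to CA1 for 31 and 28 of the 38 genes.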

How the data were processed

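RNA of 102 dissected pieces was sequenced, and 24 of them, CA1 of aged rats, were compared here. The deposited values are gene counts that the authors divided by a size factor per library, a normalised signal and not raw counts. Per the labels and the study's methods, Illumina reads were trimmed with cutadapt (version 1.8.3), aligned to rn5 with STAR (2.5) and counted with featureCounts (1.4.4), and size factors came from DESeq2 (1.16.1). Ion Proton reads were aligned with TopHat2 and Bowtie2. How the WT table was made is not given in the sources used here. The labels name a stranded kit and the methods an unstranded one, so overlapping and antisense genes can share reads. Tables give chromosomes and no positions. Tables were tested separately.

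Genes with a mean of at least 10 were tested with limma (3.58.1, R 4.3.3) on log2(value + 1), which understates differences of low genes, and p-values were adjusted by the method of Benjamini and Hochberg. Unadjusted p-values in the text come from this fit. Every value was a whole multiple of 1 step per library (100% within 0.01 of a whole read), and edgeR (4.0.16, quasi-likelihood) and DESeq2 (1.42.0) were run on those recovered reads as alternatives. Both gave no more than 6 genes at an adjusted p under 0.05 in the Illumina table. Depth per library ranged from 5.50 to 40.3 M reads, so genes near the minimum of 10 rest on few reads. The impaired and unimpaired groups are different rats, so nothing pairs them. CA1, CA3 and DG of 1 rat are pieces of the same animal, and the fit with the rat as a block had a consensus correlation of 0.141.

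Named genes were the 10 highest and 10 lowest retested differences, every retested gene of 36 lists, for lists with genes at p under 0.01 but none retested that of smallest p, and genes of the study's list whose direction differed between tables. Other list members are given as values. Members and lists were chosen with earlier results of these data known. Lists were described by counts and medians and not tested. Alternatives changed the pseudocount, filter, normalisation, tool, covariate or rats. Each library came from 1 rat, and maze scores were not used here. Columns left without a sample numbered 0. Values of some genes are not reported here.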

Additional observations from a re-analysis of the deposited data

Results flagged for a closer look

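Named genes were screened in the 10 young CA1 libraries, the only group small enough for a test of single far values, and 6 of 41 had 1 library far from the rest. Such a screen flags about 1 in 20 groups by chance. In 4 genes it was the library of young rat R9876 that was highest, at 264.2 normalised reads for Olr59 (next 53.2), 237.9 for Cbln1 (next 121), 245.4 for Rgs6 (next 139) and 713.6 for Kcnk1 (next 525.6). All 4 are among the genes that were higher in AI than in AU. The library of young rat R9780 was the highest for Scube2, at 307 (next 216), and the lowest for Grm2, at 227 (next 517). Young libraries entered no test of AI against AU other than the fit to all 34 CA1 libraries.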

How the results depend on the processing

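Of 41 named genes, each kept its sign in every alternative fit in which it was tested (Tbr1 was not in the fit with the region scores). Counts moved more. Genes at p under 0.01 numbered 208, and 124 in rats below 9000, 123 without the deep rats, 46 with the region scores and 81 without the 3 libraries high in leptomeninges markers, a fit chosen after seeing the data that also has fewer rats. Retested genes numbered 88, and 32, 44, 13 and 24 in these fits, and genes held in the Ion Proton and WT tables numbered 79, and 27, 31, 11 and 21. The cause was not tested. The adjusted count was 0, and 6 with DESeq2 on recovered reads. Leaving out each rat in turn gave 139 to 357 genes at p under 0.01, 55 to 174 retested, 50 to 163 held and 0 to 1 at the adjusted threshold, the 1 being LOC678893 without AI rat R2233, all in the Illumina table. Retested counts were lowest without AU rat R9782 (55) and AI rat R2231 (56). The share of retested genes that were higher in AI was 60.2%, and 43.3% without rat R9869, 47.0% with all 34 CA1 libraries in the fit and 86.4% without the deep rats. For CA1 minus CA3, 112 genes at p under 0.01 became 199 with no filter, 182 with the rat as a replicate block and 291 without every aged library nearer to another subfield. For CA1 minus DG, 69 became 130 with no filter, 122 with the block and 34 in the Ion Proton table. The block left the adjusted counts at 0. Low genes such as Olr59 and Sema3a are limited by depth.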
